A study of Mus musculus with 4 samples.

Results

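The genes described here are 10 transcription factors that mark regions and neuron classes of the diencephalon and its neighbours, Tcf7l2, Lef1, Gbx2, Lhx9, Rora, Foxp2, Otx2, Sox14, Six3 and Meis2. They were found by symbol among the 40091 genes listed in single-nucleus RNA sequencing (snRNA-seq) of mouse thalamic tissue, and all 10 had a row in each of the 4 libraries. The tissue came from adult wild-type C57BL6 mice of 7 to 8 weeks, taken 7 days after an injection into the right ventral posterior nuclei (VPM and VPL). In the COL group the injection held 0.01 U of Coll IV in 10 nl of saline, a collagenase that opens vessel walls and so causes haemorrhage, while in the NS group it was 10 nl of saline alone. Each group had 2 libraries, and each library pooled 3 mice, so the spread between single mice was not measured and both groups carried the needle track. The comparison asked what the regional make-up of the sampled neurons was in each library, and whether the genes differed between the COL and NS groups.

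Transcription factors of this kind are switched on in the embryo as the diencephalon is divided into thalamus, prethalamus, pretectum and habenula, and many stay on in the adult neurons. Neurons born in the caudal part of the thalamus become excitatory relay cells, which load glutamate into vesicles with the transporter encoded by Slc17a6. Prethalamic, rostral thalamic and midbrain progenitors give inhibitory neurons, which make GABA with the enzymes encoded by Gad1 and Gad2. A library that took in more tissue from the neighbours of the thalamus would therefore be likely to carry more of the factors of those regions. Whether differences between the libraries here came from such sampling was not tested.

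The 4 files held 32332 barcodes with 68746459 to 77557870 UMIs (unique molecular identifiers, which count RNA molecules) per library. Of 30 clusters, 9 were named neurons from their markers, and these held 14959 nuclei, namely 5013 and 4335 in NS replicates 1 and 2 and 2925 and 2686 in COL replicates 1 and 2. The neurons of the COL libraries were deeper, with a median of 15057 and 14937 UMIs against 9733 and 9114 in the NS libraries. Any 2 libraries shared 8 to 31 barcodes. The libraries were clustered without integration, that is, without aligning them to each other. Clusters 2 and 4 held 38.4% and 10.8% of the neurons of NS replicate 1, 22.7% and 41.2% of those of NS replicate 2 and at most 0.931% of those of a COL library, whereas cluster 3 held 33.7% and 63.4% of the neurons of COL replicates 1 and 2 and at most 3.21% of the NS neurons. The 2 NS libraries were unlike each other, and with 2 libraries neither can be called the outlier. Neurons of NS replicate 1 carried the summed prethalamic and forebrain GABA markers at 86 CPM (UMIs per 1000000 UMIs of the neurons or class in that library) against 24.7 to 37.5 CPM in the other libraries. Cluster 8, with Dlk1 and Avp among its leading genes, made up 26.6% of the neurons of NS replicate 1 and at most 6.96% elsewhere.

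A neuron was called glutamatergic when it had at least 2 UMIs of Slc17a6 and more of it than of Gad1 and Gad2 together, and GABA when it had at least 2 UMIs of Gad1 and Gad2 and more of these than of Slc17a6. This gave 4246 glutamatergic, 5095 GABA and 5618 unassigned neurons. The classes were not pure, since the same rule passed 2.9% to 3.93% of oligodendrocytes as glutamatergic and 2.13% to 6.14% as GABA. These rates are at full depth, where oligodendrocytes had a median of 3750 UMIs against 11144 in neurons. Thinned to 2000 UMIs each, 15%, 14.1%, 9.4% and 8.75% of oligodendrocytes held Slc17a6 (NS replicates 1 and 2, then COL). Neurons gave 16.8%, 16.4%, 17.4% and 16.7%, so in the NS libraries the shares were close. Gad2 was in 12.4%, 7.31%, 4.14% and 8.56% of oligodendrocytes and 21.9%, 15.8%, 13.9% and 19.2% of neurons. Slc17a6, Gad1 and Gad2 defined the classes, and their difference between them is no result.

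In the GRCm38 annotation, Tcf7l2 spans chr19:55741820-55933654 and Lef1 chr3:131110471-131224356, both on the plus strand. Gbx2 lies at chr1:89927956-89931179 and Lhx9 at chr1:138825186-138848577, both on the minus strand. Rora covers chr9:68653786-69388246 and Foxp2 chr6:14901349-15441977, both on the plus strand. Otx2 is at chr14:48657677-48673819 and Sox14 at chr9:99874106-99876170, both on the minus strand, while Six3 is at chr17:85613608-85629302 on the plus strand and Meis2 at chr2:115863064-116065839 on the minus strand. All 10 are protein coding. Otx2 overlaps the antisense transcript Otx2os1, Six3 overlaps Six3os1, and Lef1, Gbx2 and Rora each overlap an antisense transcript as well. Whether the counting used strand and introns is not given in the sources used here, so reads of these genes and of their antisense partners may not be separated.

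The bases just upstream of the start are shown for 4 genes, as a pair from each side of the class comparison. Tcf7l2 and Lef1 were higher in glutamatergic neurons and found together, and Otx2 and Sox14 were higher in GABA neurons, found together and lowest in NS replicate 1 among the GABA values. Each line gives the 250 bases before the most upstream start of the gene in the RefSeq table used here (GRCm38.p6), 5′ to 3′ on the strand of the gene. For Otx2, which has 4 windows in that table, and for Lhx9, Six3 and Meis2 this start lies inside the span of the gene given above, so the printed Otx2 bases with their TAATTA are within the annotated gene. Capitals mark TAATTA in Otx2, the palindrome that homeodomain proteins bind, and CTTTGA in Sox14, the core that TCF and LEF proteins bind.
Tcf7l2, chr19:55741560-55741809, plus strand: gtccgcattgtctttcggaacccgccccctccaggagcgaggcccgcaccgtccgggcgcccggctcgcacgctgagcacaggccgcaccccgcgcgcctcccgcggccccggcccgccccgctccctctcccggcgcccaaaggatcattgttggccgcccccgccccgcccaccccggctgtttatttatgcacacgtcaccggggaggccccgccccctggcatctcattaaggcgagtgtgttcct
Lef1, chr3:131110047-131110296, plus strand: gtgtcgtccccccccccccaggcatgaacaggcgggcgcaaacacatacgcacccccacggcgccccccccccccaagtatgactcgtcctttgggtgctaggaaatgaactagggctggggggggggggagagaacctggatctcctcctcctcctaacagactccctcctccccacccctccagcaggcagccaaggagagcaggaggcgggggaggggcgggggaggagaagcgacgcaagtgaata
Otx2, chr14:48667645-48667894, minus strand: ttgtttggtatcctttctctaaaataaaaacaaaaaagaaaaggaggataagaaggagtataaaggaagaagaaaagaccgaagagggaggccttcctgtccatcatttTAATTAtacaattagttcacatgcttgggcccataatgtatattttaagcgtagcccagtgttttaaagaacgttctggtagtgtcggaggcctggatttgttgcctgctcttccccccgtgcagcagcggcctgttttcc
Sox14, chr9:99876171-99876420, minus strand: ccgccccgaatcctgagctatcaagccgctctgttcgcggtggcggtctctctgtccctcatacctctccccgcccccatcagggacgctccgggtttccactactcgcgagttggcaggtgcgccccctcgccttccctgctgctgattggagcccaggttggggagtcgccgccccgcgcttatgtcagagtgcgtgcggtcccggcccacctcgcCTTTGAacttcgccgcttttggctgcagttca

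A window was found for 9 of the 10 genes. The windows were searched on both strands for 6 cores, and no window held more than 1 match. CTTTGA occurred in the windows of Sox14, starting 32 bases before its start, and of Meis2, 109 bases before, and in 13.8% of the 32841 windows of all genes. TAATTA occurred in Otx2, 141 bases before the start, and in 4.84% of all windows. TGACAG, the MEIS core, occurred in Lhx9 and Six3 and in 15.9% of all windows. No member window held TAATCC (OTX, 6.25% of all windows), AGGTCA (ROR, 14%) or TGTTTAC (forkhead, 3.17%). The Tcf7l2 and Lef1 windows were 72.8% and 66.4% G or C, that of Sox14 65.6% and that of Otx2 42%, against a median of 52.4% over all windows. A match of letters is a description and not a binding site.

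Of the 10 genes, 9 differed between glutamatergic and GABA neurons of the same libraries. Tcf7l2, Lef1, Lhx9, Rora and Foxp2 were higher in glutamatergic neurons, Otx2, Sox14, Six3 and Meis2 were higher in GABA neurons, and Gbx2 did not pass the test. The test was edgeR's quasi-likelihood F test on UMIs summed per class and library, with the library as a block (8 sums) and Benjamini-Hochberg adjustment over 21056 genes. The same test called 24.6% of all genes, 12.6% as higher in glutamatergic and 11.9% as higher in GABA neurons. Without the library block, 657 genes were called in place of 5175, and Rora (adjusted p = 0.0976) and Otx2 (adjusted p = 0.0627) were no longer among them. Without NS replicate 1, 3438 genes were called, with all 9 of these genes still among them.

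Tcf7l2 encodes a partner of beta-catenin in Wnt signalling and is a defining factor of thalamic and habenular neurons. In glutamatergic neurons its level was 489 and 535 CPM in NS replicates 1 and 2 and 796 and 525 CPM in COL replicates 1 and 2. In GABA neurons it was 83.4, 145, 193 and 127 CPM in the same order. All 4 glutamatergic values lay above all 4 GABA values, and within a library the ratio was 3.69 to 5.87 (log2 fold change 2.25, SE 0.104, adjusted p = 1.54e-06). COL replicate 1 was the highest library in both classes.

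Lef1, a close relative of Tcf7l2 in the same pathway, measured 335, 474, 517 and 316 CPM in glutamatergic neurons and 44.4, 95.3, 85.5 and 97.4 CPM in GABA neurons. The classes did not overlap (log2 fold change 2.5, SE 0.171, adjusted p = 1.21e-05). NS replicate 1 was the lowest library in GABA neurons, and COL replicate 2 the lowest in glutamatergic neurons.

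Lhx9 encodes a LIM-homeodomain factor of early thalamic neurons. It was at 30.5, 24.2, 45.6 and 43.4 CPM in glutamatergic neurons and at 5.46, 6.33, 10.7 and 6.89 CPM in GABA neurons (log2 fold change 2.43, SE 0.11, adjusted p = 1.47e-06). In glutamatergic neurons both COL libraries lay above both NS libraries.

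Rora, a nuclear receptor found in sensory relay nuclei of the thalamus, was at 2928, 3126, 3963 and 3195 CPM in glutamatergic neurons. In GABA neurons it was at 1375, 1947, 2079 and 2366 CPM. The difference was smaller than that of the genes above (log2 fold change 0.90, SE 0.112, adjusted p = 4.08e-04), and the ratio within a library ran from 1.35 to 2.13.

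Foxp2, a forkhead factor of posterior and intralaminar thalamic nuclei and of the striatum, was at 363, 370, 417 and 343 CPM in glutamatergic neurons and at 226, 187, 217 and 186 CPM in GABA neurons. Its class difference varied little among libraries, with ratios of 1.60 to 1.97 (log2 fold change 0.99, SE 0.0611, adjusted p = 7.02e-06).

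Gbx2, a homeodomain factor that thalamic precursors switch on as they leave the cell cycle, was barely detected. The neurons held 67, 39, 64 and 34 UMIs of Gbx2 in all, or 1.19, 0.851, 1.26 and 0.768 CPM. Its class difference was not called (log2 fold change 1.15, SE 0.44, adjusted p = 0.0908), though it was in the 4 clusters that every library shared (2.11, adjusted p = 5.37e-03). The ratio of glutamatergic to GABA levels was 1.03 and 1.00 in the NS libraries and 4.30 and 8.65 in the COL libraries, the latter resting on 5 and 3 UMIs in GABA neurons.

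Meis2, a TALE homeodomain factor of striatal, prethalamic and other forebrain GABA neurons, gave the opposite pattern. Its level in GABA neurons was 324, 308, 482 and 263 CPM, and in glutamatergic neurons 24.4, 66.5, 47.4 and 137 CPM (log2 fold change -2.42, SE 0.378, adjusted p = 1.61e-03). The classes did not overlap, but the glutamatergic level of COL replicate 2 was the highest of the 4.

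Six3, a homeodomain factor of the anterior forebrain that marks part of the prethalamic and striatal GABA neurons, measured 27.9, 17.7, 29.6 and 25.9 CPM in GABA neurons. In glutamatergic neurons it measured 6.12, 2.82, 1.24 and 2.91 CPM (log2 fold change -2.92, SE 0.291, adjusted p = 1.16e-04). Its antisense transcript Six3os1 was lower in glutamatergic neurons as well, by a log2 difference of -3.35 (SE 0.225, adjusted p = 1.10e-05).

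Sox14 encodes an HMG-box repressor of GABA neurons in the pretectum, the ventral lateral geniculate nucleus and the rostral thalamus. It was at 2.24, 11.8, 4.08 and 9.69 CPM in GABA neurons, on 48, 138, 52 and 166 UMIs, and at 1.43, 0.403, 0.241 and 0.788 CPM in glutamatergic neurons. The class difference was called (log2 fold change -2.98, SE 0.505, adjusted p = 2.49e-03), and NS replicate 1 and COL replicate 1 were the low libraries among the GABA values.

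Otx2, a homeodomain factor of the midbrain and of its inhibitory neurons, was at 2.01, 13.7, 9.25 and 14.4 CPM in GABA neurons and at 2.15, 2.29, 1.73 and 1.76 CPM in glutamatergic neurons (log2 fold change -2.03, SE 0.382, adjusted p = 4.29e-03). It was higher in the GABA class in 3 of 4 libraries. In NS replicate 1 the ratio of glutamatergic to GABA levels was 1.07, against 0.122 to 0.186 in the other 3. Otx2os1 was also lowest in NS replicate 1 among the GABA values, with 23.9 CPM in NS replicate 1 and 178, 93.1 and 151 CPM in the others.

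**Figure D1:**
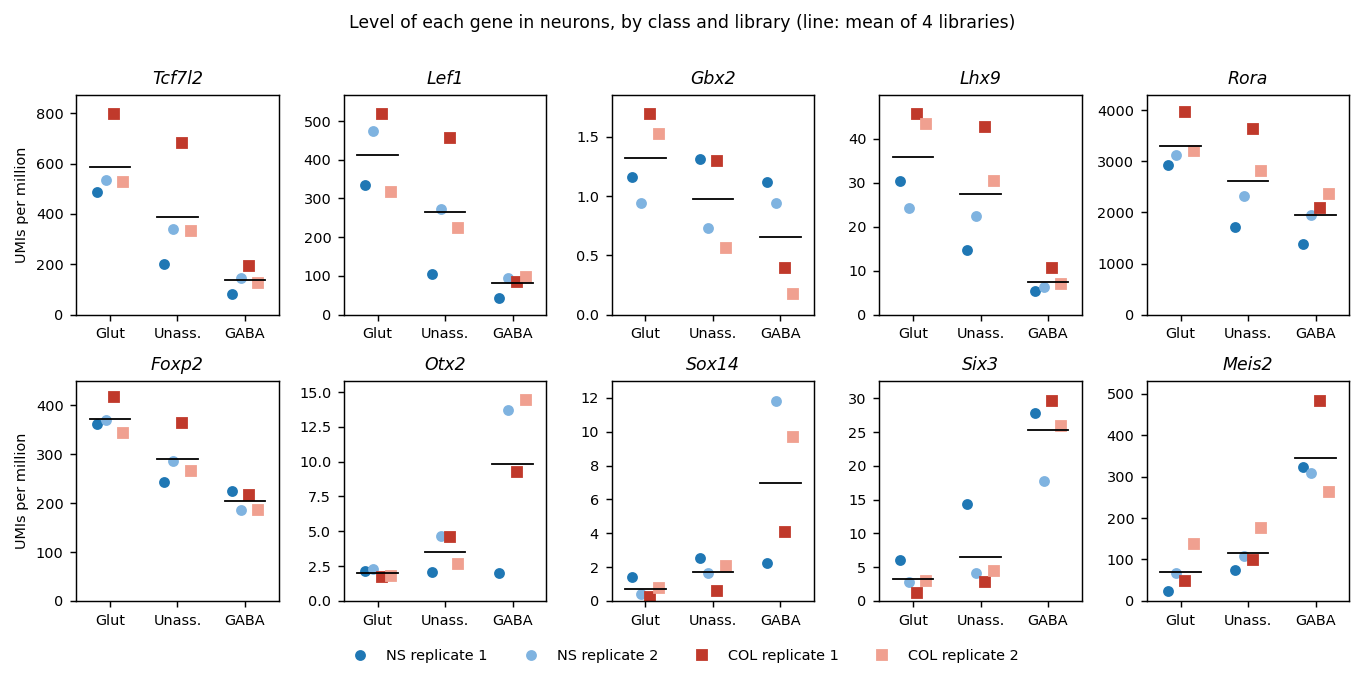
Level of each gene in CPM of the class, on linear axes that start at 0, for glutamatergic, unassigned and GABA neurons. Each point is a library (circles NS, squares COL) and each line the mean of 4 libraries. Tcf7l2, Lef1 and Lhx9 are at the top in the glutamatergic column, while Meis2, Six3, Sox14 and Otx2 are at the top in the GABA column with Otx2 at 2.01 in NS replicate 1.

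Markers of the regions around the thalamus split between the classes in the same fit, which called 24.6% of all genes. The lists were chosen with earlier results of these data known, so their counts are descriptions and no independent support. All 11 thalamic relay genes were higher in glutamatergic neurons, with a median log2 fold change of 1.40 against -0.04 over all genes. Among them were Synpo2 (2.84), Plekhg1 (2.76), Prkcd (2.55), which encodes a protein kinase C of relay cells, and Necab1 (1.72). All 7 prethalamic and forebrain GABA genes were higher in GABA neurons, with a median of -3.08, including Dlx6os1 (-4.17), Dlx1 (-3.08), Isl1 (-2.98) and Pax6 (-2.09), of which Dlx1 and Pax6 encode homeodomain factors of the prethalamus.

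All 8 midbrain and pretectum genes were called, 5 as higher in GABA neurons and 3 as higher in glutamatergic neurons. Gata3 (-3.95), Tal1 (-3.40) and Gata2 (-2.91) are selectors of midbrain and rostral thalamic GABA neurons, and Pax7 (-3.55) marks the dorsal midbrain and pretectum. In GABA neurons Gata3 was at 4.76 and 14.3 CPM in NS replicate 1 and COL replicate 1 and at 29.7 and 22.7 CPM in NS replicate 2 and COL replicate 2, the same low and high libraries as for Sox14.

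Of 5 thalamic reticular genes, 4 were higher in GABA neurons (Ecel1, Pvalb, Cacna1i and Sst, log2 fold changes -1.54 to -0.70). All 4 lost their calls without the library block (edgeR adjusted p = 0.0758, 0.106, 0.279 and 0.711), and Sst also when thinned to 2000 UMIs (-0.30, adjusted p = 0.313). Of 5 habenula genes, Pou4f1 alone was called, as higher in glutamatergic neurons (1.7), and it lost the call with strict classes (edgeR adjusted p = 0.139) and in shared clusters (0.0516). Of 6 hippocampal and cortical genes tested, 4 were higher in glutamatergic neurons, led by Slc17a7 (1.77) and Prox1 (1.65). The other two, Neurod2 and Neurod6, lost their calls with DESeq2 (adjusted p = 0.067 and 0.0864) and under other alternatives. Of 5 striatal genes, Drd1 (-1.54) and Adora2a (-2.56) were higher in GABA neurons, and neither was called without the library block (edgeR adjusted p = 0.114 and 0.339). In shared clusters Drd1 was at -0.55 (edgeR adjusted p = 0.29).

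Of 15 relatives of the 10 genes, 3 were higher in glutamatergic neurons and 4 in GABA neurons. Of all genes, 12.6% and 11.9% were called in these directions, so the counts are not read as a trait of the relatives. Lhx2, the closest relative of Lhx9, had a log2 fold change of 2.46, and Rorb, the paralogue of Rora, of 1.33. Foxp1, the paralogue of Foxp2, was the other of the 3. Otx1 (-2.19) and Pbx3 (-1.02), which encodes a partner of MEIS proteins, were higher in GABA neurons, as Otx2 and Meis2 were.

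Summed over all neurons, none of the 10 genes differed between the COL and NS groups. Here fewer nuclei of a type and less RNA per nucleus cannot be told apart. The background was as low, since edgeR called 2 of 23760 genes (0.00842%), Hmox1 and Atf3, which are named after their values were seen, with 6661 at an unadjusted p under 0.05, while DESeq2 called 2553 of 20664 (12.4%), Lhx9 among them. Levels that did not overlap between the groups, with COL higher, were found for 20.2% of all genes, and for 59% in either direction.

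Lhx9 came closest. It was at 16.3 and 18.9 CPM in the NS libraries and at 36.1 and 26.1 CPM in the COL libraries, so the groups did not overlap (log2 fold change 1.00, SE 0.257, adjusted p = 0.111 by edgeR and 0.0119 by DESeq2). Rora measured 1977 and 2490 CPM in the NS group and 3402 and 2783 CPM in the COL group, and Meis2 153 and 145 CPM against 170 and 195 CPM. These 2 also showed no overlap, but neither was called (adjusted p at least 0.116).

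Tcf7l2 was at 249 and 353 CPM in the NS libraries and at 615 and 324 CPM in the COL libraries (log2 fold change 0.83, adjusted p = 0.234). Lef1 was at 156 and 293 CPM against 393 and 210 CPM. For both genes COL replicate 1 stood high, and COL replicate 2 lay inside the NS range. Without COL replicate 2, the lone COL library has to be assumed to vary like the NS libraries. The log2 fold changes were then 1.23 for Tcf7l2, 1.23 for Lhx9, 0.81 for Rora and 0.53 for Foxp2.

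Foxp2 was at 275 and 288 CPM in the NS group and at 353 and 264 CPM in the COL group. Otx2 measured 2.08 and 6.20 CPM against 4.35 and 6.84 CPM, Sox14 2.08 and 3.84 CPM against 1.30 and 4.54 CPM, and Six3 16.9 and 7.16 CPM against 8.78 and 12.2 CPM. In these 4 genes the groups overlapped, and for Otx2, Sox14 and Six3 the libraries of a group lay farther apart than the means of the groups.

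The shares of the neuron clusters also differed between the libraries. As the libraries were not integrated, a shift of whole libraries and a different mix of neuron kinds cannot be told apart here. Cluster 6, whose leading genes included Abhd12b, Prkcd, Synpo2 and Lef1 itself, held 5.05% and 14.3% of the NS neurons and 23.2% and 12.1% of the COL neurons, and cluster 7, with Necab1 among its leading genes, 10.1% and 9.16% against 24.6% and 8.64%. In the 4 clusters with at least 50 nuclei in every library, the COL minus NS difference changed sign for Tcf7l2 (log2 fold change -0.37), Lef1 (-0.74), Rora (-0.10) and Foxp2 (-0.46). The sum over these clusters was still of unequal mix, since cluster 3, low in Tcf7l2, held few NS and many COL neurons. Levels were therefore also compared within each of the 4 clusters, without a test.

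Within cluster 3, 7 of the 10 genes were higher in both COL than in both NS libraries and none was lower, against 24.6% and 24.9% of all genes. The 7 included Tcf7l2 (140 and 90 against 237 and 169 CPM) and Lef1 (25.8 and 49.8 against 76.3 and 90.4 CPM). Lhx9 (15.9 and 7.58 against 21.5 and 20.6 CPM) and Rora (1783 and 1778 against 2533 and 2615 CPM) were also among them. The rest were Otx2 (3.03 and 7.58 against 7.71 and 9.52 CPM), Sox14 (0 and 0.948 against 4.1 and 6.09 CPM) and Six3 (5.31 and 4.74 against 7.92 and 9.95 CPM), all low. The cluster held 1.52% and 3.21% of NS neurons against 33.7% and 63.4% of COL neurons. The NS values therefore rest on few nuclei, which need not be like the other NS neurons. Within cluster 6, Gbx2, Lhx9 and Meis2 were higher in both COL libraries (24.7% of all genes). Lef1 (887 and 902 against 876 and 837 CPM) and Foxp2 (272 and 323 against 254 and 219 CPM) were lower there (23.6% of all genes). Within cluster 7, Tcf7l2 (660 and 652 against 857 and 811 CPM), Gbx2, Lhx9, Rora and Meis2 were higher (19.4% of all genes), and Sox14 and Six3 were lower (32%). Within cluster 18 Rora was higher (16.2%) and Meis2 lower (22.6%). All other values of the 10 genes overlapped between the groups.

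Over all neurons, the summed relay markers were at 2166 and 3150 CPM in the NS group and 3863 and 1974 CPM in the COL group. They were highest in COL replicate 1, as were Tcf7l2, Lef1, Gbx2, Lhx9, Rora and Foxp2 but not Otx2, Sox14, Six3 or Meis2. The relay markers were lowest in COL replicate 2. The part of the cluster mix in the levels was not tested further.

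Within glutamatergic neurons, 0 of the 10 genes and 0 of 19759 genes (0%) were called by edgeR, with 4045 at an unadjusted p under 0.05 and 908 called by DESeq2. Lhx9, Rora and Gbx2 showed no overlap with COL higher and Otx2 with COL lower. Lhx9 was at 27.4 ± 4.47 CPM in the NS group and 44.5 ± 1.57 CPM in the COL group (SD, n = 2; log2 fold change 0.77, SE 0.161, edgeR adjusted p = 0.154, DESeq2 adjusted p = 0.0282). Meis2 had the largest fitted difference that was higher in the COL group (1.03, SE 0.583) and Six3 the largest that was lower (-1.09, SE 0.507), and the libraries of both overlapped. Without COL replicate 2, which leaves 1 COL library, the log2 fold changes were 0.79 for Tcf7l2 and 0.90 for Lhx9. Levels without overlap and COL higher made up 19.8% of all genes, 51.4% in either direction. The class rule was applied at full depth, with a median of 13021.5 and 12777.5 UMIs in the NS and 19585 and 17487 in the COL glutamatergic neurons. Thinned to 2000 UMIs, Slc17a6 was found in 39.9% and 40.1% of the NS and 32.3% and 34.9% of the COL nuclei. The class was thus not drawn alike in the groups, and what this does to the levels was not tested.

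Within GABA neurons, 0 of the 10 genes and 0 of 19756 genes (0%) were called by edgeR, with 5519 at an unadjusted p under 0.05 and 1528 called by DESeq2. The log2 fold changes ran from -1.76 for Gbx2, on 24 and 11 UMIs in the NS group and 5 and 3 in the COL group, to 0.75 for Otx2. Lhx9 and Rora showed no overlap with COL higher, as did 20.5% of all genes, and Gbx2 with COL lower (60% of all genes did not overlap in either direction). Summed over the shared clusters, which differ in mix, the Lhx9 difference had the opposite sign (-0.87). The GABA neurons too were deeper in the COL group, with a median of 13936.5 and 14628 UMIs against 9411 and 8570. Without COL replicate 2, which leaves 1 COL library, the log2 fold change of Meis2 was 0.79.

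Whether the COL effect differed between the classes was tested as an interaction. edgeR called 0 of 21056 genes (0%), with 889 at an unadjusted p under 0.05, and DESeq2 also called 0. Gbx2 had an interaction of 2.44 (SE 0.57), Six3 of -1.51 (SE 0.397) and Meis2 of 0.76 (SE 0.764), each with an adjusted p of 0.977. Without COL replicate 2, which leaves 1 COL library, the interaction of Six3 was -2.30. In the 4 shared clusters edgeR called 21 genes with Meis2 among them (2.91, adjusted p = 0.0305).

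None of the region lists held a gene called between the groups in neurons or in either class. Among all genes edgeR called 2 of 23760 in neurons, 0 of 19759 in glutamatergic and 0 of 19756 in GABA neurons. The lack of calls is therefore no result about the regions. The summed midbrain and pretectum markers of all neurons were at 21.1 and 44.6 CPM in the NS group and at 16 and 52.1 CPM in the COL group, so NS replicate 2 and COL replicate 2 were the high libraries, as for Sox14 and Otx2. The prethalamic and forebrain GABA markers were at 86 and 24.7 CPM against 33.2 and 37.5 CPM, with NS replicate 1 high as for Six3. Oligodendrocyte markers in the neurons ran from 494 CPM in COL replicate 1 to 977 CPM in COL replicate 2, and their part in the results was not tested.

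**Figure D2:**
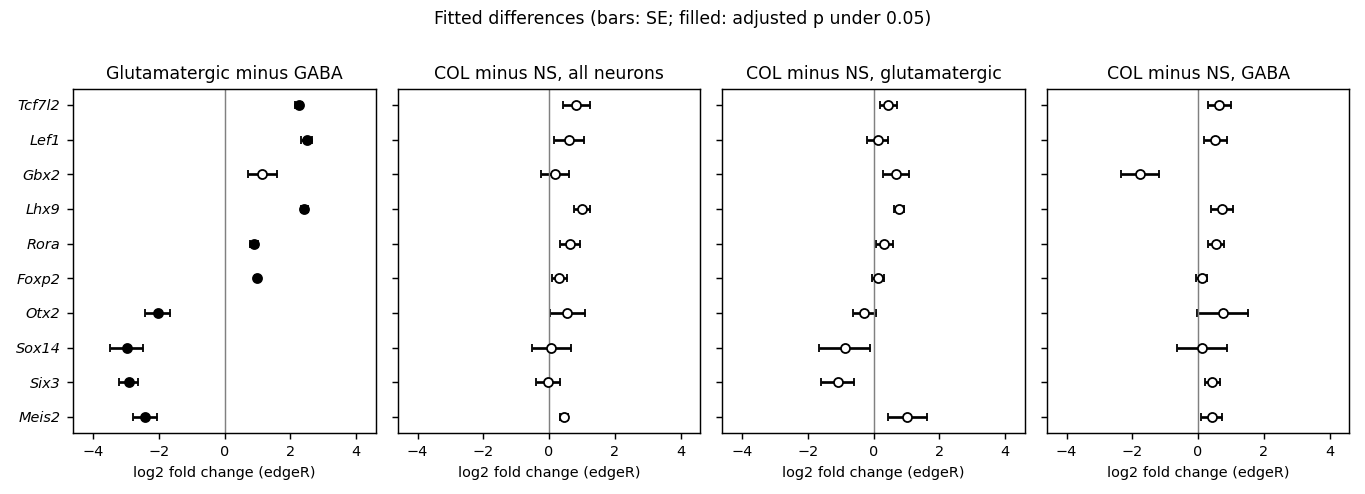
Fitted log2 fold changes of the 10 genes with their SE, for glutamatergic minus GABA neurons and for COL minus NS in all neurons and in each class. Filled points passed an adjusted p of 0.05, which 9 genes did in the first panel and none in the others.

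To compare libraries of unequal depth, every neuron was thinned to 2000 UMIs, which left out 13 of the 14959. Tcf7l2 was then found in 22.2% (95% Clopper-Pearson interval 21.1 to 23.4) and 33.8% (32.4 to 35.2) of the neurons of NS replicates 1 and 2. The COL libraries gave 55.7% (53.9 to 57.5) and 32.4% (30.7 to 34.2). The spread between the 2 COL libraries was wider than their distance from the NS libraries. The intervals cover counting error only. At full depth the 4 shares were 47.5%, 58.5%, 84.1% and 65.5%.

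Oligodendrocytes served as a reference with a median of 3750 UMIs before thinning, against 11144 in neurons. They are no blank for Tcf7l2, which oligodendrocyte precursors and young oligodendrocytes express, and 22.2% to 31.7% of them held a UMI. For Lef1 the shares of neurons were 11.1% and 24.1% in the NS group and 35.5% and 21% in the COL group, above the 3.69% to 12.6% of oligodendrocytes of the same library. Gbx2 was found in 0.26%, 0.139%, 0.0684% and 0.112% of neurons, on 2 to 13 nuclei, and in 0.41%, 0.415%, 0.186% and 0% of oligodendrocytes (0 of 1554 in COL replicate 2, with an upper 95% limit of 0.237%). At this depth its share in neurons was at or below that of oligodendrocytes in 3 of 4 libraries and was read as background. At 5000 UMIs, with fewer oligodendrocytes left, neurons gave 0.656%, 0.48%, 0.693% and 0.338% against 0%, 0.37%, 0.223% and 0% of oligodendrocytes, so the reading depends on the depth.

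Lhx9 was found in 2.66% and 3.42% of the NS neurons and in 6.74% and 4.77% of the COL neurons, each above the 1.08% to 2.29% of oligodendrocytes. In glutamatergic neurons the shares were 5.21% and 4% against 8.68% and 7.98%, and in GABA neurons 1.37% and 1.08% against 2.38% and 1.52%. The GABA shares were close to those of oligodendrocytes of the same library. Rora was found in 87% and 92.1% of the NS neurons and 94.5% and 94% of the COL neurons, and Foxp2 in 25.7% and 29.2% against 37.7% and 30.3%. Among oligodendrocytes too, the shares of Rora, Foxp2, Meis2, Lef1 and Otx2 were higher in both COL libraries, where Rora went from 46.9% and 47.1% to 68.9% and 64.8% and Foxp2 from 9.74% and 6.6% to 19.9% and 13.5%. The Lhx9 shares of oligodendrocytes overlapped, but their Lhx9 levels did not (4.61 and 6.31 against 10 and 7.51 CPM). Among astrocytes 0.954% and 0.914% against 2.05% and 2.21% held Lhx9, while the microglia shares overlapped. These astrocyte shares rest on 4 and 6 nuclei with Lhx9 in the COL libraries, and they overlapped at 1000 UMIs. Astrocyte levels of Lhx9 did not overlap (4.9 and 4.99 against 7.06 and 9.29 CPM). Its levels overlapped in oligodendrocyte precursors (5.47 and 6.79 against 8.6 and 5.59 CPM), microglia and vascular nuclei. Outside neurons Lhx9 was thus higher in both COL libraries in some cell types and not in others. These glial values were not set against all genes.

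Meis2 was found in 11.9%, 14.5%, 15.5% and 18.3% of neurons, and Six3 in 3.63%, 1.18%, 1.78% and 2.49%. Their GABA neurons gave 21.3%, 24.4%, 35.8% and 22% for Meis2 and 5.44%, 2.75%, 5.5% and 4.45% for Six3. Oligodendrocytes of the same libraries held Meis2 at 9.69%, 9.54%, 12.6% and 14.6%, below the GABA neurons in each library, and Six3 at 2.26%, 0.957%, 0.742% and 0.901%, also below them. In glutamatergic neurons the Meis2 shares of 3.61%, 8.48% and 5.7% were below the oligodendrocytes in 3 libraries, and that of COL replicate 2, at 15%, was near them.

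Otx2 was found in 0.379% of the neurons of NS replicate 1 and in 1.62%, 1.3% and 1.64% in the other libraries. In GABA neurons the shares were 0.441%, 3.08%, 2.5% and 3.22%, against 0.154% to 0.644% of oligodendrocytes. NS replicate 1, with 9 such GABA neurons, was the low library. Sox14 was found in 0.49%, 2.5%, 1.25% and 1.8% of GABA neurons and in at most 0.257% of oligodendrocytes. In NS replicate 1 the GABA share was no higher than that of glutamatergic neurons (0.588%) or microglia (0.503%), and in the other 3 libraries it was above both.

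The shares of neurons with Lhx9, Rora, Foxp2 and Meis2 were higher in both COL than in both NS libraries and that of Gbx2 was lower. The two-sided exact permutation p was 0.33 for each of these 5, the smallest that 2 libraries against 2 can give. Over the 21860 genes compared in this way, 20% had shares that did not overlap with COL higher, 35.7% with COL lower and 55.8% either way.

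**Figure D3:**
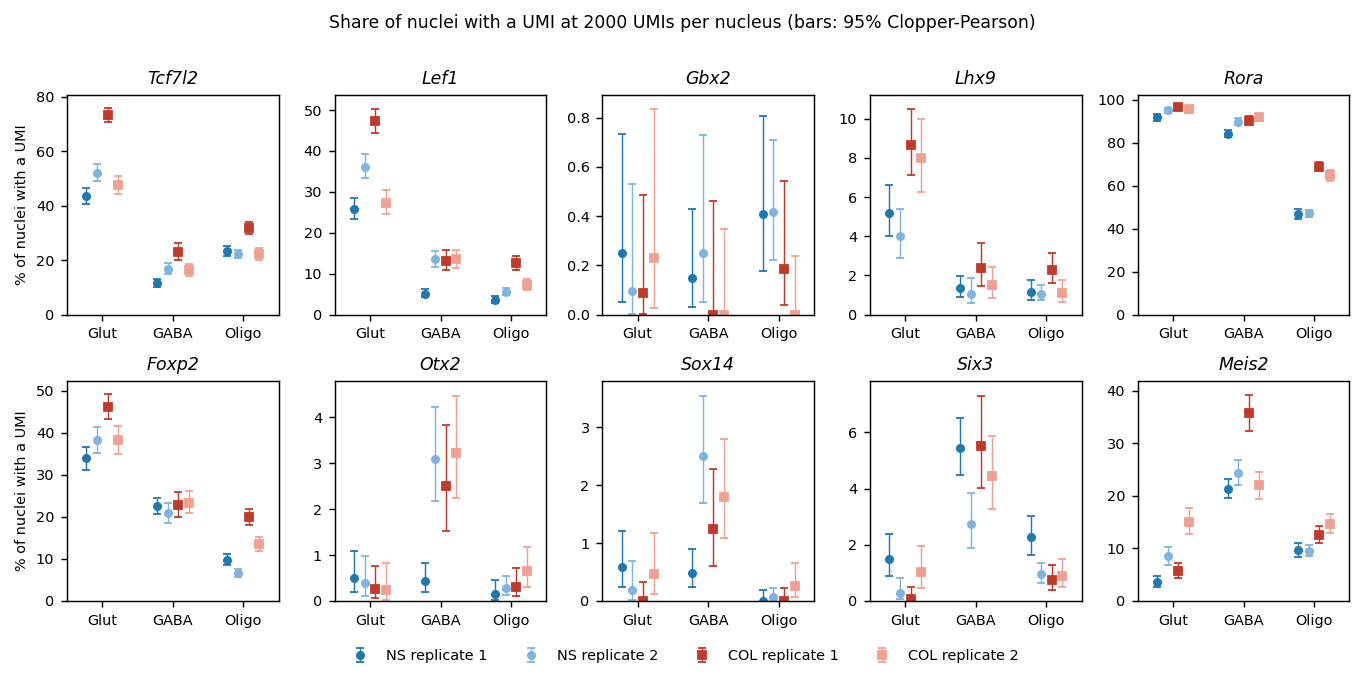
Share of nuclei with at least 1 UMI of each gene, in percent on linear axes, after thinning to 2000 UMIs, for glutamatergic neurons, GABA neurons and oligodendrocytes of each library. Bars are 95% Clopper-Pearson intervals. The Otx2 share of GABA neurons is 0.441% in NS replicate 1 and 2.5% to 3.22% in the other 3 libraries.

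By their own transmitter genes, 23.7% and 24.2% of the NS neurons and 39% and 32.2% of the COL neurons were glutamatergic at full depth. The difference of 11.6 percentage points had an exact permutation p of 0.33, and it moved with depth. Thinned to 5000 UMIs the shares were 9.38%, 9.52%, 11.5% and 9.46%, and the groups overlapped. GABA neurons made up 40.7% and 27.7% of the NS neurons and 27.4% and 39.3% of the COL neurons, so that the libraries within each group lay farther apart than the groups (difference -0.875, exact permutation p = 0.667).

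Among neurons thinned to 2000 UMIs, those with Tcf7l2 also had Slc17a6 in 22.8%, 19.4%, 20.9% and 21.7% of nuclei, against 15%, 14.9%, 13.1% and 14.3% of neurons without Tcf7l2. They had Gad1 or Gad2 in 19.7%, 13.1%, 8.4% and 15.4%, against 34.1%, 26.9%, 31% and 30.8% without it. At this depth Slc17a6 was also found in 15%, 14.1%, 9.4% and 8.75% of oligodendrocytes and 24.1%, 21.1%, 12.6% and 8.22% of microglia. In the NS libraries the Slc17a6 share of neurons with Tcf7l2 was thus no higher than that of microglia, while in the COL libraries it was higher. Relative to the number expected from the shares of both genes in a library, Tcf7l2 met Slc17a6 1.18 to 1.36 times and the GAD genes 0.457 to 0.636 times as often. Lhx9 met the GAD genes 0.273 to 0.438 times the expected number, and Slc17a6 1.22 to 1.75 times in 3 libraries and 0.947 times in NS replicate 2.

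Six3 went the other way in every library. Neurons with Six3 had Gad1 or Gad2 in 43.4%, 47.1%, 57.7% and 47.8% of nuclei, which is 1.40 to 3.14 times the expected number. Meis2 met the GAD genes 1.13 to 2.22 times the expected number and Sox14 1.04 to 2.43 times. Otx2 did so 1.76 to 2.31 times in 3 libraries but 0.851 times in NS replicate 1, where 5 of 19 neurons with Otx2 had a GAD gene. Rora, which most neurons held, met both partners at 0.958 to 1.03 times the expected number, and Foxp2 met Slc17a6 at 1.09 to 1.17 times and the GAD genes at 0.606 to 0.924 times.

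At full depth, the neurons with Sox14 were GABA neurons in 44.3%, 75.9%, 72.3% and 77.6% of nuclei, and those with Six3 in 59.4%, 55.1%, 74% and 73%. The neurons with Lhx9 were glutamatergic in 54.5%, 39.6%, 58.5% and 55.7%. For Otx2 the GABA share was 36.2% in NS replicate 1 and 52.1%, 45.5% and 75.8% in the others. The low value of NS replicate 1 is no separate observation. It comes from the same 117 UMIs of Otx2 in its neurons as the low values above. Of all neurons, 40.7%, 27.7%, 27.4% and 39.3% were GABA and 23.7%, 24.2%, 39% and 32.2% glutamatergic. In NS replicate 1 the Sox14 value was thus near this base rate and the Otx2 value below it.

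Among the 45 pairs of the 10 genes, 23 had at least 5 neurons expected in every library. Of these 23, 9 pairs were found together more often than expected in all 4 libraries and 6 less often. Expected numbers take the genes as independent within a library, and these ratios are descriptions without a test. Tcf7l2 and Lef1 shared 1970 neurons against 1236 expected, a ratio of 1.59 with a range of 1.35 to 2.66 over libraries. Tcf7l2 also met Lhx9 (1.46) and Foxp2 (1.30), Lhx9 met Foxp2 (1.34) and Lef1 met Foxp2 (1.27), each above 1 in all 4 libraries. Six3 and Meis2 shared 89 neurons against 49.3 expected (1.81).

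The pairs found together less often each joined a gene higher in glutamatergic neurons to a gene higher in GABA neurons. Lef1 with Six3 gave 0.385, Tcf7l2 with Sox14 0.428, Foxp2 with Six3 0.443, Lef1 with Meis2 0.568, Tcf7l2 with Meis2 0.587 and Tcf7l2 with Six3 0.646. Otx2 and Sox14 were rare, yet 14 neurons held both where 1.28 were expected. These 14 came from 3 libraries, and NS replicate 1 had none. Six3 shared 1 neuron with Otx2 and 1 with Sox14, against 3.29 and 2.22 expected.

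**Figure D4:**
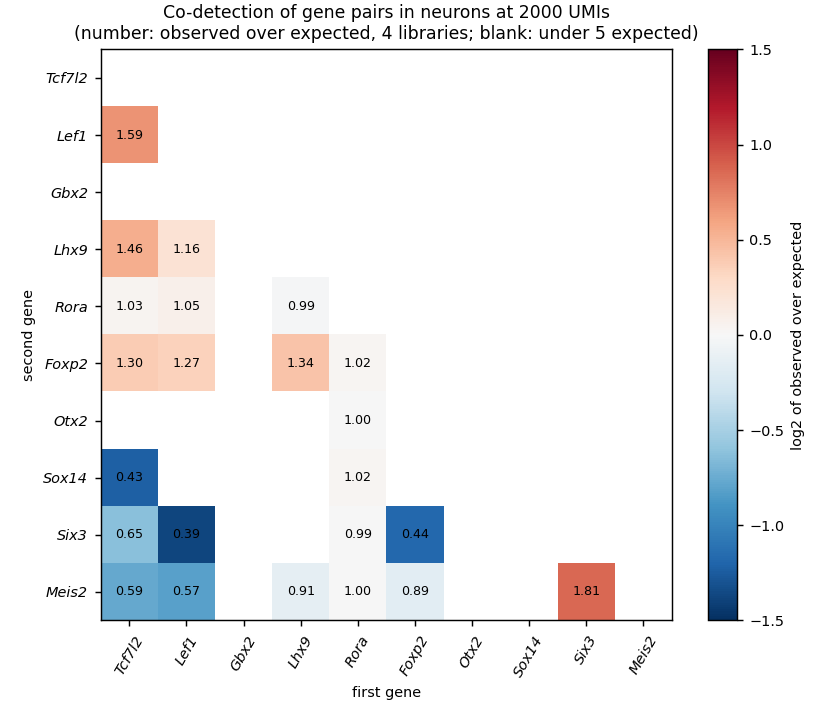
Number of neurons holding both genes of a pair over the number expected if independent within each library, summed over 4 libraries, at 2000 UMIs per neuron. Colour is the log2 of that ratio, and pairs with under 5 neurons expected in a library are blank. Tcf7l2 with Lef1 (1.59) and Six3 with Meis2 (1.81) are above 1, and Lef1 with Six3 (0.385) is the lowest pair shown.

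The clusters had been built without the 10 genes and without Slc17a6, Gad1 and Gad2. Even so, the genes were unequal between clusters, which is given as a description. Cluster 6 had Tcf7l2 at 833, 758, 940 and 819 CPM and Lef1 at 887, 902, 876 and 837 CPM, with 56.2% glutamatergic and 4.32% GABA neurons. Cluster 7 had less Lef1 (315, 334, 413 and 315 CPM) but more Foxp2 (598, 697, 623 and 575 CPM) and Lhx9 (44.1, 36.7, 54.3 and 65.6 CPM). For Tcf7l2 and Lef1 in both clusters, the highest library exceeded the lowest by a smaller factor than in all neurons.

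Cluster 20, led by Nwd2, Scube1, Robo3 and Chat, held Tcf7l2 at 588 to 724 CPM, Lhx9 at 110 to 150 CPM and Otx2 at 10.6 to 28.7 CPM in the 3 libraries with enough nuclei, beside Rora at 690 to 979 CPM. Chat encodes the enzyme that makes acetylcholine. Cluster 18, of which 85.6% were GABA neurons, held Six3 at 108, 109, 122 and 99.4 CPM and Meis2 at 1088, 1009, 770 and 861 CPM. Cluster 16, led by genes such as Rarb, Bcl11b and Rgs9, which striatal neurons express, held Meis2 at 169 to 1175 CPM and Foxp2 at 142 to 883 CPM in 3 libraries, with COL replicate 2 the low library for both.

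Cluster 8, found mainly in NS replicate 1, held Six3 at 30.2, 22.2 and 20.2 CPM in the 3 libraries with enough nuclei and little Tcf7l2 (56.4 to 77.8 CPM). The large clusters 2, 3 and 4, with 16.3% to 25.7% glutamatergic and 39.3% to 43.1% GABA neurons, had none of the 10 among their 10 leading genes. Sox14 in cluster 3 was at 0 and 0.948 CPM in the NS libraries and at 4.10 and 6.09 CPM in the COL libraries, and in cluster 4 at 1.99 and 7.43 CPM in the NS libraries.

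**Figure D5:**
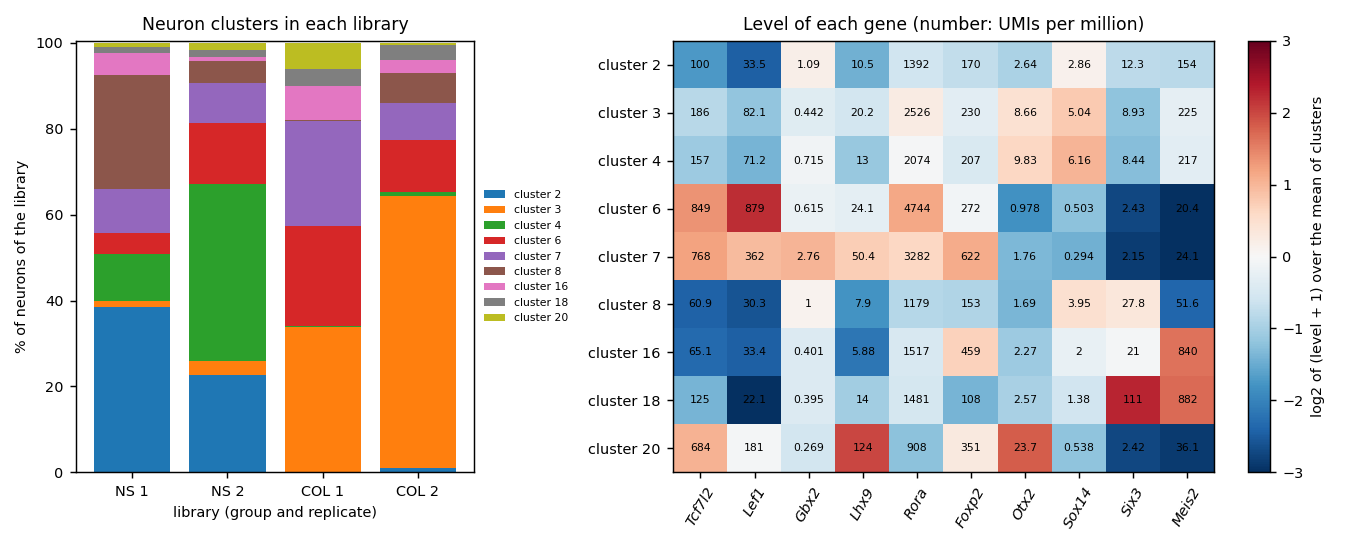
Left, share of each library's neurons in the 9 neuron clusters, in percent. Right, level of each gene in each cluster over all libraries in CPM, with colour as the log2 of (level + 1) over the mean of clusters. Clusters 2 and 4 are mostly of NS and cluster 3 mostly of COL neurons, cluster 6 has Lef1 at 879 and cluster 18 has Six3 at 111.

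The genes most like each of the 10 were sought by the phi coefficient of detection across 14946 neurons, averaged over the 4 libraries, among 10829 genes found in at least 1% of neurons of every library. The libraries share no nuclei, but the neurons of a library share its depth and preparation, so these values are descriptions. Synpo2 (phi 0.313), Vav3 (0.301) and Rnf220 (0.281) were most like Tcf7l2, and Plekhg1 (0.359), Synpo2 (0.345) and Vav3 (0.312) most like Lef1. Tcf7l2 was itself the gene most like Foxp2 (0.154), before Rnf220 (0.136) and Ntng1 (0.129).

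For Lhx9 the values were low, with D130079A08Rik (0.087), Tcf7l2 (0.082) and Scube1 (0.070) in front. Of these, D130079A08Rik and Scube1 are among the leading genes of cluster 20. For Rora, Arpp21 (0.105), Synpo2 (0.094) and Grm7 (0.093) were nearest. Six3 was most like Gm2115 (0.094), Gad2 (0.077) and Gm42303 (0.060), and Meis2 most like G630016G05Rik (0.224), Plcb1 (0.135) and Hs3st4 (0.134). Gbx2, Otx2 and Sox14 were under the 1% limit.

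Several of the 10 genes were as high in glia as in neurons. The mean level of Tcf7l2 over 4 libraries was 596 ± 95 CPM in oligodendrocyte precursors (OPC), 595 ± 61 in astrocytes, 387 ± 64.2 in vascular nuclei, 385 ± 159 in neurons, 317 ± 54.3 in microglia and 150 ± 26.7 in oligodendrocytes (SD, n = 4). The ranges of the first 2 overlapped, as did those of vascular nuclei, neurons and microglia. Rora was at 4671 ± 194 CPM in astrocytes, 3387 ± 848 in vascular nuclei, 2663 ± 595 in neurons, 2293 ± 133 in OPC, 475 ± 142 in oligodendrocytes and 442 ± 152 in microglia. Neighbours in that order overlapped down to OPC, which lay above oligodendrocytes.

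Otx2 was higher in astrocytes, at 31.3, 25, 41.6 and 34.1 CPM, than in neurons (4.87 ± 2.14 CPM, SD, n = 4), with no overlap, and at 3.35 or less in the other types present in 4 libraries. Lef1 stood at 282 ± 132 CPM in vascular nuclei and 263 ± 103 in neurons and at 46.1 or less in the other types present in 4 libraries. In T and NK cells, which had enough nuclei only in the COL libraries, it was at 716 and 598 CPM. Lef1 is known from developing and naive T cells.

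Foxp2 was at 518 ± 56.5 CPM in vascular nuclei, 295 ± 40.1 in neurons and 106 or less in the other types present in 4 libraries, and the ranges of vascular nuclei, neurons and OPC did not overlap. In T and NK cells of the COL libraries it was at 178 and 163 CPM. Meis2 was at 189 ± 56.3 CPM in astrocytes and 166 ± 22.1 in neurons, with overlapping ranges. Six3 overlapped between neighbours throughout, from 12 ± 8.08 CPM in astrocytes to 5.7 ± 4.37 in oligodendrocytes. Lhx9 (24.3 ± 8.83 CPM) and Sox14 (2.94 ± 1.51 CPM) had their highest mean in neurons, though both overlapped the next type, and Gbx2 was at 3.26 CPM or less in every type.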

How the data were processed

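Nuclei of thalamic tissue were profiled by droplet snRNA-seq in 2 NS and 2 COL libraries, each of 3 pooled mice. The deposited values are UMI counts per gene and nucleus, not normalized, which the authors made with Cell Ranger 1.2.0 on mm10 per the labels. Nuclei with over 50 genes and under 5% mitochondrial UMIs were kept (32291 of 32332). They were clustered with Seurat 5.3.0 (5000 variable genes less the 10 genes and the transmitter genes, 15 components, resolution 0.8, libraries not integrated). Clusters were named from markers by a rule written after the clusters were seen. Clusters with over 50% doublets (Scrublet in scanpy 1.11.5) were set apart as mixed, 7 in all, and other doublets were kept, with their removal as an alternative. Counts were summed per library and class and tested with edgeR 4.0.16 (TMM, quasi-likelihood, Benjamini-Hochberg, adjusted p under 0.05), and levels (CPM) are UMIs per 1000000 UMIs of the class. The rule for named genes was all 10 genes, up to 4 genes per region list by lowest adjusted p, and for likeness the 3 genes with the highest phi. Some members of the lists are not reported here by name. The 10 genes and the lists were chosen with earlier results of these data known. Alternatives were DESeq2 1.42.0, RLE factors, no filter, blocks, thinning, doublet removal, other neuron definitions and each library left out. The tests were tried on simulated counts with known changes. With 2 libraries a group, which may not be separate preparations, p-values measure the spread between these libraries only, and the smallest exact permutation p is 0.33. Depth was 68746459 to 77557870 UMIs per library.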

Additional observations from a re-analysis of the deposited data

How the results depend on the processing

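Between COL and NS, edgeR called 2 genes in neurons, 0 in glutamatergic and 0 in GABA neurons, and with the replicate block 1010, 795 and 2005, while the interaction stayed at 0. The numbers were not shown to pair libraries (correlation of deviations 0.0467 over 23760 genes). The glutamatergic against GABA fit has the library as its block, and the fit with no replicate block called 657 genes in place of 5175. DESeq2 called 2553 genes in neurons, 908 in glutamatergic and 1528 in GABA neurons and 3428 between classes. With no filter on low counts 877, 2714 and 4023 were called between the groups. Thinned to 2000 UMIs, 476 were called in neurons, 550 in GABA neurons and 1965 between classes. RLE factors, doublet removal, shared clusters and resolutions 0.4 and 1.2 left 0 in neurons. Shared clusters gave 12 in GABA neurons and 21 for the interaction, and strict classes 3397 between classes. Leaving out each library in turn gave 0 to 5102 genes in neurons, 0 to 2779 in glutamatergic neurons, 0 to 1982 in GABA neurons, 3438 to 4294 between classes and 0 to 61 for the interaction. Among these the highest count of each comparison between the groups came without COL replicate 2. Among its 795 genes in glutamatergic neurons, the block also called Lhx9 (adjusted p = 0.0438, edgeR) and Meis2 (0.024). With no filter, Lhx9, Six3 and Meis2 were among the 2714 genes called there. Tcf7l2, Lef1, Rora and Otx2 were among the 4023 called in GABA neurons. The causes were not tested.

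The COL minus NS difference in the glutamatergic share, 11.6 percentage points, was -0.182 thinned to 1000 UMIs, -15.2 in shared clusters and 8.22 to 15 with a library left out. That of the GABA share, -0.875, was 18.6 in shared clusters, 5.41 with strict classes and -7.36 to 5.61 with a library left out. The count of genes whose shares did not overlap, 5 at 2000 UMIs, was 4 at 1000 and at 5000 UMIs. It was 6 to 9 with a library left out, when 1 library stands against 2 and fewer orders of the libraries give an overlap. Over all genes compared, 55.8% did not overlap at 2000 UMIs with every library in. That percentage was not obtained for the other settings, so their counts have no background and no change is read from them. The 15 pairs on 1 side in every library were 9 at 1000 UMIs.

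Directions of single genes turned in the sum over shared clusters, whose mix differs between the groups, and with libraries left out. In neurons the shared clusters gave Tcf7l2 -0.37, Lef1 -0.74, Gbx2 -0.13, Rora -0.10, Foxp2 -0.46 and Six3 0.30. In glutamatergic neurons they gave Tcf7l2 -0.08, Lef1 -0.49, Rora -0.05 and Foxp2 -0.24. In GABA neurons they gave Tcf7l2 -0.69, Lef1 -1.19, Lhx9 -0.87, Foxp2 -0.47, Six3 -0.61 and Meis2 -0.62. The shares changed there by -16.5 points for Tcf7l2, -16.1 for Lef1, -9.92 for Foxp2 and 0.123 for Six3. The block gave Sox14 -0.04 and Six3 0.07 in neurons, strict classes Lef1 -0.30 in glutamatergic and Sox14 -0.17 in GABA neurons, thinning Foxp2 -0.05 and the gate on single nuclei Sox14 -0.00371 in GABA neurons and -0.00847 points in its share. With no thinning the share differences of Gbx2 and Six3 were 0.508 and 0.0866 points.

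With a library left out, the log2 fold change in neurons ran from -0.07 to 1.2 for Lef1, -0.36 to 0.51 for Gbx2, -0.05 to 0.53 for Foxp2, -0.06 to 1.63 for Otx2, -0.99 to 0.66 for Sox14 and -0.48 to 0.64 for Six3. In glutamatergic neurons it ran from -0.37 to 0.50 for Lef1, -0.10 to 0.35 for Foxp2 and -1.77 to 0.29 for Sox14. In GABA neurons it ran from -0.09 to 0.25 for Foxp2, -0.13 to 2.74 for Otx2, -0.70 to 1.80 for Sox14 and -0.20 to 0.79 for Meis2. The interaction of Meis2 ran from -0.49 to 1.89. Share differences ran from -0.149 to 1.09 points for Otx2, -0.335 to 0.365 for Sox14 and -1.5 to 0.957 for Six3. Between classes, 154 results for the 10 genes kept their direction and side of the threshold, 2 for Gbx2 passed it and 2, Rora and Otx2 with no replicate block, lost it. Of the results for list genes named, 401 kept theirs and 19 lost it.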
